A study of Mus musculus with 3 samples.

Results

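The hCD33M library of brain microglia was compared with the Control library, gene by gene. Microglia were taken as cells in which P2ry12 and Tmem119, a purinergic receptor and a membrane protein typical of these cells, together made up at least 0.15% of the UMIs (unique molecular identifiers, each marking 1 captured RNA molecule), and in which Mrc1, Pf4, Ms4a7 and F13a1, markers of other macrophages, summed to under 5 UMIs. This rule held for 4791 cells of hCD33M and 3214 cells of Control, 8005 of the 14289 barcodes in the 3 libraries of the series. In both groups the mice were male and 8 weeks old. Control mice were wild type by their label, which does not say whether they carried Cre recombinase. The hCD33M mice carried a transgene for the long isoform of human CD33 behind a stop cassette, from a CAG promoter and together with GFP, and Cre placed in the Cx3cr1 locus released it in cells that use that locus. The strain background was C57BL/6. The study describes a pair of male mice pooled per genotype before sorting on CD11b, CD45 and Cx3cr1. The barcodes here, 3482 in Control and 5100 in hCD33M, number as in its second experiment, for which it does not restate the pooling. Each genotype is 1 library here, with no replicate. The third library, hCD33m, carries the short isoform and came from mice labelled female. It shares the Control library with this comparison, and its values are given beside those of hCD33M without a further comparison.

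CD33 is a sialic acid-binding lectin of the Siglec family, carried by myeloid cells. Its long isoform binds sialic acid-containing glycans through an outer V-set domain and passes an inhibitory signal through tyrosine motifs (ITIMs) in its tail, which recruit phosphatases. Microglia are the resident macrophages of the brain, and they depend on the receptor Csf1r, sense fractalkine through Cx3cr1, and clear debris by phagocytosis.

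The counts do not hold the human transgene, because the reads were aligned to the mouse genome, so its expression could not be checked here. UMIs were summed over the microglia of a library and scaled to the total of that library (CPM). The sums held 19528575 UMIs in Control and 26676577 UMIs in hCD33M, with medians of 5434.5 and 5084 UMIs per cell. Ratios below are log2 ratios of hCD33M over Control, with an exact 95% interval from the counts in parentheses. These intervals cover counting error only and do not hold the spread between mice, so no value here is a test of the genotype.

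Several measurements on the libraries themselves precede the genes. Csf1r and the complement gene C1qa, which the rule did not use, were seen in 99.8% and 100% of Control microglia and in 99.9% and 100% of hCD33M microglia after each cell had been thinned to 2000 UMIs. They do not separate microglia from cells with other macrophage markers, which showed Csf1r in 31 of 32 and 54 of 57 cells and C1qa in 27 of 32 and 46 of 57. Sall1, a microglial transcription factor gene not used by the rule, was seen in 55.0% of Control and 58.9% of hCD33M microglia. Among the cells with other macrophage markers it was seen in 2 of 32 and 0 of 57. Marker lists of 9 other cell types were summed over the microglia, excluding border-associated macrophages, whose defining markers the rule used. Monocyte markers summed to 91.6 CPM in Control and 112.2 CPM in hCD33M, most of it Lsp1, which had 79.1 and 95.6 CPM. Neuron markers summed to 9.32 and 8.32 CPM, and choroid plexus and ependymal markers to 1.02 and 0.34 CPM. No neutrophil UMI was counted for any of 9 markers in Control, and the summed level in hCD33M was 0.07 CPM. Red cell markers were at 0 in Control and at 0.56 CPM in hCD33M. Sums for astrocyte, oligodendrocyte, endothelial and lymphocyte markers were between 116 and 605 CPM in Control and between 119 and 564 CPM in hCD33M, and their measured members had ratios from -0.12 to 0.15. The part of these markers in the results below was not tested.

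In the rule for microglia, cells lay on both sides of the threshold. Shares of P2ry12 and Tmem119 from 0.15% to 0.20% were held by 83 Control and 126 hCD33M cells, and shares from 0.10% to 0.15% by 42 and 74 cells. Control and hCD33M had 7 cell barcodes in common.

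The Y-linked genes set the male libraries apart from each other. Ddx3y, an RNA helicase gene, had 56.7 CPM in Control and 83.2 CPM in hCD33M (0.55, 0.45 to 0.66). Uty, a histone demethylase gene, had 18.7 and 33.9 CPM (0.85, 0.68 to 1.03). Kdm5d, also a histone demethylase gene, had 18.2 and 26.95 CPM (0.57, 0.38 to 0.76), and the translation factor gene Eif2s3y had 56.0 and 66.8 CPM (0.26, 0.15 to 0.37). All 4 were at 0 in the female-labelled hCD33m library. Summed, they had 149.6 CPM in Control and 210.8 CPM in hCD33M (0.49, 0.43 to 0.56). With cells thinned to 4000 UMIs, at least 1 of these UMIs was present in 39.8% of 2659 Control microglia (95% Clopper-Pearson interval, 38.0 to 41.7) and in 55.0% of 3697 hCD33M microglia (53.3 to 56.6). Their X-linked homologues Ddx3x, Eif2s3x, Kdm5c and Kdm6a were seen in 61.5% (59.6 to 63.3) and 63.2% (61.6 to 64.7) of the same cells. The female-specific transcript Xist was at 0.26 CPM in the Control library and at 0.19 CPM in hCD33M. Both libraries are therefore male by Xist, as labelled, while the level of Y-linked transcripts per cell differed between them.

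A total of 8581 genes reached 10 CPM in the higher of both libraries, and most of them lay close to equal levels. Their median ratio was 0.01, and 93.6% were within 1.2-fold. At least 1.5 times higher in hCD33M were 47 genes, 0.548% of those tested, and 25 genes, 0.291%, were at least 1.5 times lower. Of the 72 genes, 39 stayed under 20 CPM. Counts of list members past 1.5-fold are read below against the shares of 0.548% and 0.291%. A gene could be tested through its higher library alone. Examples are Axl, Vcam1, H2-Q7, H2-Eb1, St8sia6 and Gbp3, which reached 10 CPM in hCD33M but not in Control, so their place in these counts is no support. Above a ratio of 0 by any amount lay 55.1% of the genes, the share against which the counts of list members above 0 are read below. By chromosome, the medians ran from -0.02 to 0.03 on the autosomes and X, with 0.57 for 5 genes of the Y chromosome and 0.19 for the 13 mitochondrial genes.

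**Figure D1:**
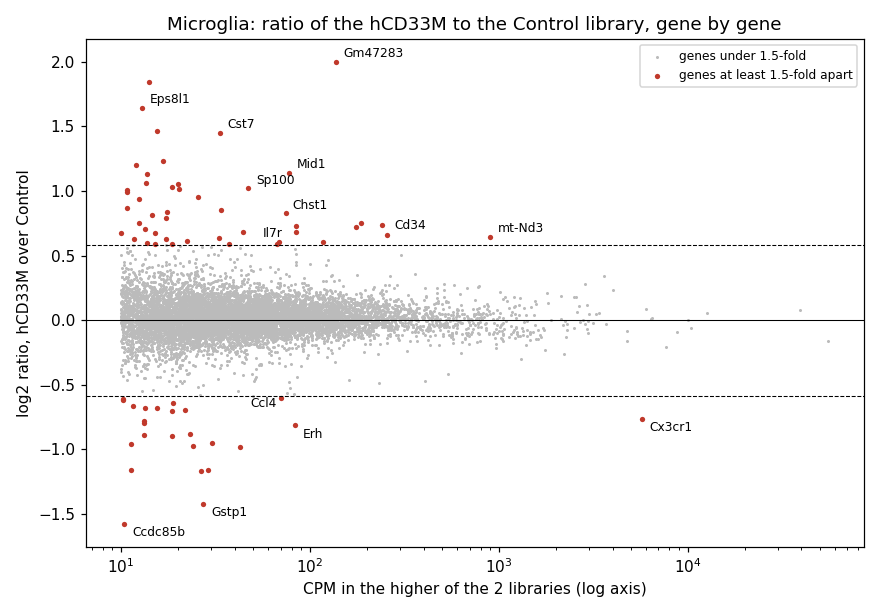
Each point is 1 of 8581 genes, with its CPM in the higher library on a logarithmic horizontal axis and its log2 ratio of hCD33M over Control on the vertical axis. Dashed lines mark 1.5-fold, beyond which 47 genes lie on the higher side and 25 on the lower, most of them at low levels, with Cx3cr1 the most abundant.

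Cx3cr1, the fractalkine receptor gene that carries Cre in these mice, was the most abundant gene past 1.5-fold. It had 5717 CPM in Control (95% exact Poisson interval, 5684 to 5751) and 3372 CPM in hCD33M (3350 to 3394), a ratio of -0.76 (-0.77 to -0.75). In hCD33m it had 3172 CPM. By the breeding described for the study the transgenic mice carry Cre in this gene. For its phagocytosis and in situ experiments the study lists wild-type counterparts that also carry it. Neither the Control label nor the study says so for the sequenced Control mice, so the insertion and the human receptor cannot be told apart here. The gene stayed detected in nearly every cell, in 99.9% of Control and 99.4% of hCD33M microglia at 2000 UMIs. The number of molecules per cell differed instead: the median was 11 UMIs in Control and 6 UMIs in hCD33M, with quartiles of 8 and 14 UMIs and of 4 and 9 UMIs. In the few cells with other macrophage markers, 32 in Control and 57 in hCD33M, Cx3cr1 was seen in 87.5% and 64.9%. The GENCODE vM21 model of Cx3cr1 (chromosome 9, 119901616 to 120069879, minus strand) spans neighbouring genes, among them Csrnp1 and Gorasp1, which had ratios of -0.08 and -0.12. Within 5 Mb of Cx3cr1, the 49 other tested genes had a median of 0.04 and ranged from -0.23 for Abhd5 to 0.75 for Rps27rt, the only one of them past 1.5-fold.

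Among genes of at least 50 CPM, leaving out the sex-linked list, 13 were at least 1.5 times higher and 3 lower. The highest belonged to the end of the sex chromosomes. Gm47283, annotated near the distal end of chromosome Y (90784738 to 90816464, plus strand), beside the pseudoautosomal region, had 34.4 CPM in Control, 138 CPM in hCD33M and 28.7 CPM in hCD33m, a ratio of 2.00 (1.88 to 2.12). Mid1, a ubiquitin ligase gene that crosses the pseudoautosomal boundary of the X chromosome (169685199 to 170005736, plus strand), had 35.0 CPM in Control, 77.1 CPM in hCD33M and 26.8 CPM in hCD33m (1.14, 1.02 to 1.27). The hCD33M library thus stood above both others, which were close to each other. At 2000 UMIs, Gm47283 was seen in 5.51% of Control cells (4.72 to 6.38) and 24.4% of hCD33M cells (23.2 to 25.7).

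In Control, detection of Gm47283 also moved with the Y-linked genes from cell to cell. At 4000 UMIs it was seen in 13.3% of the 1059 Control microglia with a UMI of Ddx3y, Eif2s3y, Kdm5d or Uty (11.3 to 15.5) and in 7.06% of the 1600 microglia without one (5.86 to 8.43). In hCD33M the shares were 39.6% (37.4 to 41.7) and 37.1% (34.7 to 39.4). Mid1 was seen in 13.5% (11.5 to 15.7) and 10.3% (8.86 to 11.9) of these Control cells, with overlapping intervals. In hCD33M the shares of Mid1 were 25.3% (23.4 to 27.2) and 26.4% (24.3 to 28.6). Adap2os, an autosomal gene taken for comparison, was seen in 43.9% and 44.4% of the same Control cells. Adap2os was chosen for this after its values were seen.

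Apart from these, the highest ratios included genes of the cell surface and of glycan sulfation. Chst1 (chromosome 2, 92599707 to 92615250, plus strand), a sulfotransferase that adds sulfate to galactose on glycans, had 41.9 CPM in Control, 74.4 CPM in hCD33M and 53.2 CPM in hCD33m (0.83, 0.71 to 0.95). Il7r (chromosome 15, 9505788 to 9530176, minus strand), the interleukin-7 receptor, had 52.7, 84.4 and 100.2 CPM in this order (0.68, 0.57 to 0.79). Cd34 (chromosome 1, 194938819 to 194961279, plus strand), a sialomucin known from blood progenitors and vessels, had 162, 255 and 231 CPM (0.66, 0.60 to 0.72).

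Detection of these 3 genes differed in the same direction. Cd34 was seen in 25.3% of Control microglia (23.8 to 26.9) and 36.7% of hCD33M microglia (35.3 to 38.1) at 2000 UMIs, and in 49.8% and 64.8% without thinning. Other macrophages of these libraries gave the background from free RNA: Cd34 was seen in 0 of 32 such cells in Control, which allows a share of up to 9.38%, and in 1 of 57 in hCD33M (1.75%, 0.04 to 9.39), at median depths of 5884 and 5687 UMIs. Il7r was seen in 9.496% of Control microglia (8.48 to 10.6) and 14.9% of hCD33M microglia (13.9 to 16.02), and in 0 of 32 and 0 of 57 other macrophages, which allows up to 9.38% and 5.26%. In Control this limit is close to the share in microglia itself, and the Clopper-Pearson limit of 10.9% lies above that share. Chst1 was seen in 7.65% (6.73 to 8.65) and 13.8% (12.8 to 14.9), and in 2 of 32 and 0 of 57 other macrophages.

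**Figure D2:**
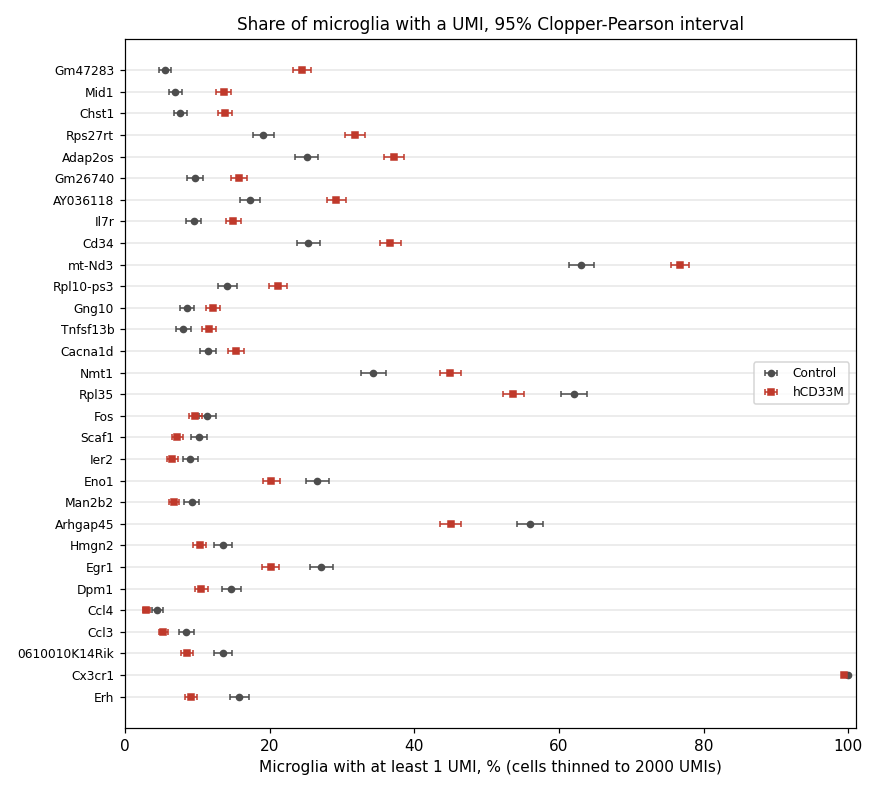
Share of microglia with at least 1 UMI, in percent on the horizontal axis, for the 15 highest and the 15 lowest genes after thinning each cell to 2000 UMIs, with 95% Clopper-Pearson intervals for Control (circles) and hCD33M (squares). For each of the 30 genes the shares differ in the direction of the CPM ratio, and the widest gap is that of Gm47283, 5.51% against 24.4%. The genes were chosen by their CPM ratio and the shares come from the same UMIs, so this agreement is not separate support.

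The list of enzymes for sialic acid and glycan sulfation, the groups that Siglecs bind, did not move as a whole. Of 22 measured members 12 were above 0, with a median of 0.04, and Chst1 and St8sia6 were past 1.5-fold. St8sia6, a sialyltransferase, had 9.42 CPM in Control and 15.03 CPM in hCD33M (0.67, 0.42 to 0.93), with 0.08 in cells of 2000 to under 5000 UMIs. St6gal1, which makes the alpha-linked sialic acid bound by several Siglecs, had 32.2 and 38.4 CPM (0.25, 0.11 to 0.40). St3gal6, the most abundant sialyltransferase of the list in Control, had 449 and 424 CPM (-0.08, -0.12 to -0.04), and the sialic acid transporter gene Slc35a1 had 32.6 and 28.2 CPM (-0.21, -0.36 to -0.06), with 0.16 in cells of 2000 to under 5000 UMIs.

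The remaining genes among the 15 highest were of several kinds. Nmt1, which attaches myristate to proteins, had 213 CPM in Control and 302 CPM in hCD33M (0.51, 0.45 to 0.56), with 320 CPM in hCD33m. Tnfsf13b, the B cell survival factor BAFF, had 44.5 and 67.1 CPM (0.59, 0.47 to 0.71), with 29.4 CPM in hCD33m. The G protein subunit gene Gng10 had 45.0 and 68.2 CPM (0.60, 0.48 to 0.72), and the calcium channel gene Cacna1d had 59.2 and 84.6 CPM (0.51, 0.41 to 0.62). For Gng10, Nmt1 and Cacna1d the annotation holds other genes within the same span, and reads shared with them could not be told apart. Under 1.5-fold in 1 or more bands of depth were Tnfsf13b (0.42 at its lowest) and Gng10 (0.53).

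Noncoding transcripts and copies of ribosomal protein genes made up another group of the highest ratios, and their identity is less certain. Adap2os, antisense to the GTPase-activating protein gene Adap2, had 144 CPM in Control, 240.4 CPM in hCD33M and 237 CPM in hCD33m (0.74, 0.67 to 0.80), while Adap2 itself had a ratio of 0.02. Gm26740, also annotated as antisense, had 50.8 and 84.3 CPM (0.73, 0.62 to 0.84), and the noncoding AY036118, which overlaps an annotated gene on either strand, had 106 and 175 CPM (0.72, 0.65 to 0.80). The sources used here do not say whether counting used strand, so an antisense transcript cannot be told apart from its partner. Rps27rt, a near-identical copy of the ribosomal protein gene Rps27, had 110.5 and 186 CPM (0.75, 0.68 to 0.83), and the sum of both genes had a ratio of 0.17. Rpl10-ps3 had a ratio of 0.61 against -0.30 for its parent gene Rpl10, and -0.23 for the sum of both. Reads shared between such copies may be split by the counting, so these values are uncertain. The lowest ratios over the ways of processing were 0.50 for Gm26740, 0.57 for AY036118 and 0.53 for Rpl10-ps3, under 1.5-fold.

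**Figure D3:**
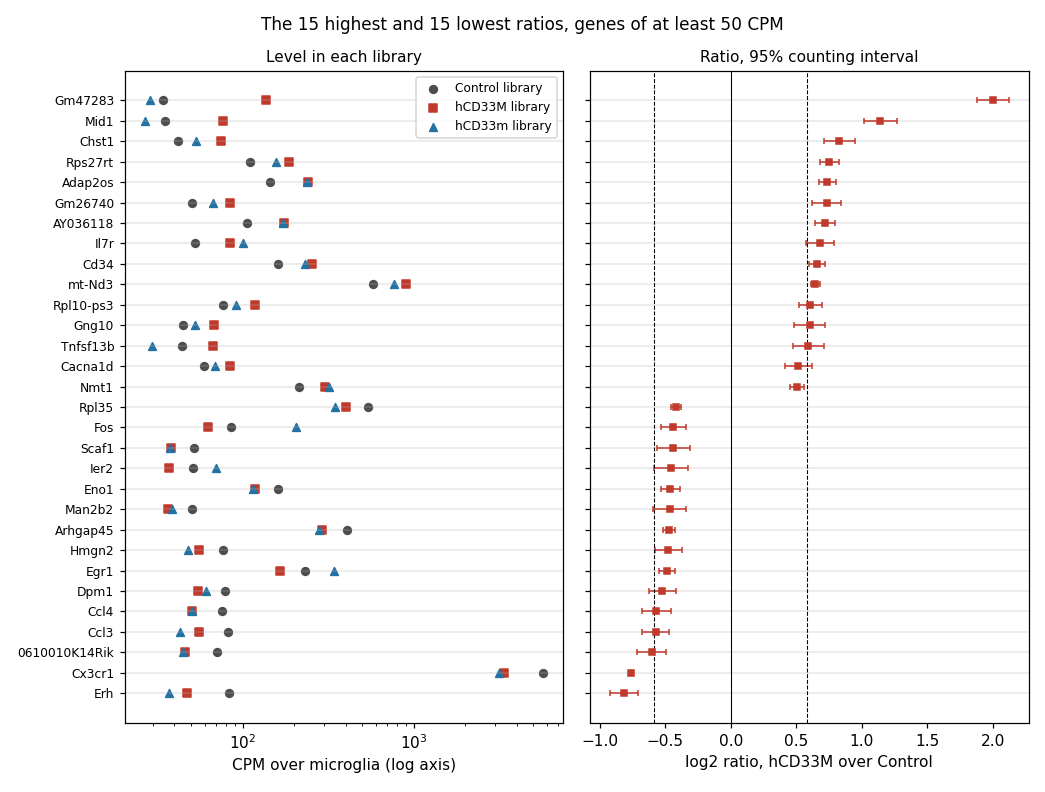
The 15 highest and 15 lowest ratios among genes of at least 50 CPM, the sex-linked list left out, with the CPM in Control, hCD33M and hCD33m on a logarithmic axis (left) and the log2 ratio of hCD33M over Control with its 95% counting interval (right). For most of the lowest genes, Cx3cr1 and Erh among them, the hCD33m value lies beside that of hCD33M, while for Fos, Ier2 and Egr1 it lies on the other side of Control.

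The lowest ratios were led by Erh (chromosome 12, 80634022 to 80644341, minus strand), a small nuclear protein that binds splicing and RNA decay factors. It had 83.5 CPM in Control (79.5 to 87.6), 47.5 CPM in hCD33M (44.9 to 50.1) and 37.4 CPM in hCD33m (-0.81, -0.92 to -0.71). It was seen in 15.8% of Control microglia (14.5 to 17.1) and 9.17% of hCD33M microglia (8.34 to 10.0). The other 28 members of the splicing list did not share this: the list had a median of 0.03, and Son, a nuclear speckle protein gene, was at 0.22 (0.19 to 0.24). The kinase gene Clk1, which phosphorylates splicing factors, was at 0.25 (0.19 to 0.30).

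Arhgap45, a GTPase-activating protein, had 406 CPM in Control and 293 CPM in hCD33M (-0.47, -0.52 to -0.43), with 280.2 CPM in hCD33m. The glycolytic gene Eno1 had 162 and 117 CPM (-0.46, -0.53 to -0.39). The high mobility group gene Hmgn2, a nucleosome-binding protein, had 77.1 and 55.4 CPM (-0.48, -0.58 to -0.37). Dpm1, which makes dolichol-linked mannose for protein glycosylation, had 78.6 and 54.7 CPM (-0.52, -0.63 to -0.42), and the lysosomal mannosidase gene Man2b2 had 50.4 and 36.5 CPM (-0.47, -0.60 to -0.34). Rpl35, a protein of the large ribosomal subunit, had 538 and 402 CPM (-0.42, -0.46 to -0.38). Closing the group were 0610010K14Rik at -0.60 (-0.72 to -0.49), with -0.46 in cells of 2000 to under 5000 UMIs, and Scaf1 at -0.44 (-0.57 to -0.31). Eno1, Hmgn2 and Rpl35 have processed copies in the genome, and reads shared with them could not be told apart.

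Interferon-stimulated genes were higher in hCD33M by small amounts. Interferons are antiviral cytokines, and the factors they switch on bind the interferon-stimulated response element in promoters, whose core holds the letters GAAANNGAAA. All 24 measured effectors, of 46 on the list, were above 0, against 55.1% of all genes, with a median of 0.23 against 0.01. The ratios ran from 0.04 for Bst2 to 1.02 for Sp100. The 45 members in the files summed to 2256 CPM in Control, 2520 CPM in hCD33M and 2587 CPM in hCD33m. The hCD33m sum thus also lay above Control, and the higher level was not particular to hCD33M. Ly6e, the most abundant member, made up 1117, 1169 and 1223 CPM of these sums. Past 1.5-fold were 3 of 24, against 0.548% of all genes. Of the other 22 effectors of the list, 21 were in the files and were not among the tested genes. The median was 0.27 in cells of 2000 to under 5000 UMIs, 0.13 in cells of 5000 to under 8000 and 0.38 in cells of at least 8000. The direction of 4 effectors depended on the processing: Phf11d was at -0.15 and Herc6 at -0.03 in the lowest band, Slfn5 at -0.15 in the middle and -0.14 in the highest band, and Slfn8 at -0.07 with cells thinned to 2000 UMIs.

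RefSeq promoters on GRCm38.p6, from 250 bases before to 50 bases after the start of a gene, were at hand for 18 of the 24. The motif was searched on both strands and was present in 11 of the 18, 61.1%, against 3.99% of all 27025 gene symbols in the promoter table and 1 of 19 immediate early genes. The list was made of genes stimulated by interferon, so this share describes the choice of genes and not the libraries. The 11 effectors with the motif had a median ratio of 0.22 and the 7 without it 0.16. Effectors without a promoter entry are in neither group, and their ratios ran from 0.07 for Ly6e to 0.68 for Ifi27l2a. A link between the element and the level was not tested. The 4 with the highest ratios among the 11 are shown as examples of the element, with the matched letters in capitals. Isg15 lies at chr4:156200769-156201068 on the minus strand, Ifit3 at chr19:34583279-34583578 on the plus strand, Phf11b at chr14:59341281-59341580 on the minus strand and Gbp3 at chr3:142559794-142560093 on the plus strand.
Isg15: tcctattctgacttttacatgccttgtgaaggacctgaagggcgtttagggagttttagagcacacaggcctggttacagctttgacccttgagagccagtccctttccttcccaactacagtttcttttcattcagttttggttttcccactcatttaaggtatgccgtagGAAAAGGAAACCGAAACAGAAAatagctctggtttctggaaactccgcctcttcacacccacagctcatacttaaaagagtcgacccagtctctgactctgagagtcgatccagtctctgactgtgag
Ifit3: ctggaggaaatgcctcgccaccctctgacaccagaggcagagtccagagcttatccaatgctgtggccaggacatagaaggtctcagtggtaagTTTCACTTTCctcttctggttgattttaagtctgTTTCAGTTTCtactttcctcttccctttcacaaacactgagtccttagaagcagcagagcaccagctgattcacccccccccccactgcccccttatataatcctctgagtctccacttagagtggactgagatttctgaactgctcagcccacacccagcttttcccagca
Phf11b: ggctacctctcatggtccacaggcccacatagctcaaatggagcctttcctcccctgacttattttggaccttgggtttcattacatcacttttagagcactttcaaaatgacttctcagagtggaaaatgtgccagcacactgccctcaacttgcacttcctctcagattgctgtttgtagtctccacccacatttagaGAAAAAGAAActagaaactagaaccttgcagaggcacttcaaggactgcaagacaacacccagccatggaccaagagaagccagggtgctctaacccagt
Gbp3: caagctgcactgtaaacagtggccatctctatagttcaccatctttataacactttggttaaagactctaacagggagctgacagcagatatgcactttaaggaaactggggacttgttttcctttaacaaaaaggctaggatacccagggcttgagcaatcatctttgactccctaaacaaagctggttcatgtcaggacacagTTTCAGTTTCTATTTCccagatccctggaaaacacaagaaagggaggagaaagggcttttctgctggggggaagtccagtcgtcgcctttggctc
In Isg15 the 3 matches overlap and start 78, 72 and 66 bases before the start site. Ifit3 holds 2 separate matches on the opposite strand, starting at 156 and 122 bases before the start, Phf11b has 1 match at 50 bases and Gbp3 has 2 overlapping ones at 45 and 39 bases. A match of these letters is a description of the sequence and does not show that a factor was bound. Sp100, the effector with the highest ratio, has no match in this window.

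Sp100, a protein of nuclear bodies that restricts viruses, had 23.2 CPM in Control, 47.1 CPM in hCD33M and 42.9 CPM in hCD33m (1.02, 0.86 to 1.18). It was seen in 4.32% of Control microglia (3.62 to 5.10) and 8.48% of hCD33M microglia (7.68 to 9.33). Its ratio stayed between 0.88 and 1.07 over the other ways of processing. Ifi27l2a, a small membrane protein induced by interferon, had 27.6, 44.3 and 41.6 CPM in this order (0.68, 0.54 to 0.83), and Ifi204, a DNA sensor, had 14.6, 22.3 and 15.6 CPM (0.61, 0.40 to 0.82). Ifi27l2a was at 0.45 in cells of at least 8000 UMIs and Ifi204 at 0.34 in cells of 5000 to under 8000, both under 1.5-fold. These 2 genes and Sp100 belong to families with similar members, so reads may be split among them.

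The genes behind the promoters above were lowly expressed. Isg15, a ubiquitin-like modifier, had 16.7 CPM in Control, 22.9 CPM in hCD33M and 23.6 CPM in hCD33m (0.45, 0.26 to 0.65). Ifit3, which takes part in binding viral RNA, had 13.5, 17.6 and 14.1 CPM (0.38, 0.16 to 0.60), with a ratio of 0.02 in cells of 5000 to under 8000 UMIs and 1.05 in cells of 2000 to under 5000 UMIs. Phf11b had 24.4, 31.0 and 26.6 CPM (0.35, 0.18 to 0.51), and the GTPase gene Gbp3 had 9.52, 11.996 and 10.96 CPM (0.33, 0.07 to 0.60). Isg15 was present in 2.08% of Control and 3.23% of hCD33M microglia.

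The other effectors had ratios from 0.04 to 0.43. Rtp4 was at 0.43 (0.25 to 0.61), Slfn2 at 0.39 (0.26 to 0.52), Ifitm3, which blocks viral entry, at 0.32 (0.14 to 0.49), Lgals3bp at 0.30 (0.22 to 0.39), Ifi27 at 0.23 (0.15 to 0.31) and Trim30a at 0.22 (0.13 to 0.30). Parp14 (0.17), Phf11d (0.16), Gbp7 (0.16), Xaf1 (0.13), Slfn5 (0.12), Herc6 (0.10), Eif2ak2 (0.09) and Ifi35 (0.08) followed. Ly6e, the most abundant of the list with 1117 CPM in Control and 1169 CPM in hCD33M, was at 0.07 (0.04 to 0.09), Slfn8 at 0.06 and Bst2, a tether of budding viruses, at 0.04 (-0.02 to 0.11). The intervals of Bst2, Slfn8, Ifi35, Eif2ak2, Herc6, Slfn5 and Xaf1 reach below 0.

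The receptors, sensors and transcription factors of the pathway lay closer to Control, with 12 of 15 measured members above 0 and a median of 0.11. The receptor chain gene Ifnar1 was at 0.19 (0.09 to 0.29) and Ifnar2 at -0.06 (-0.11 to -0.00). The RNA sensor gene Ddx58 was at 0.21 (0.05 to 0.37).

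**Figure D4:**
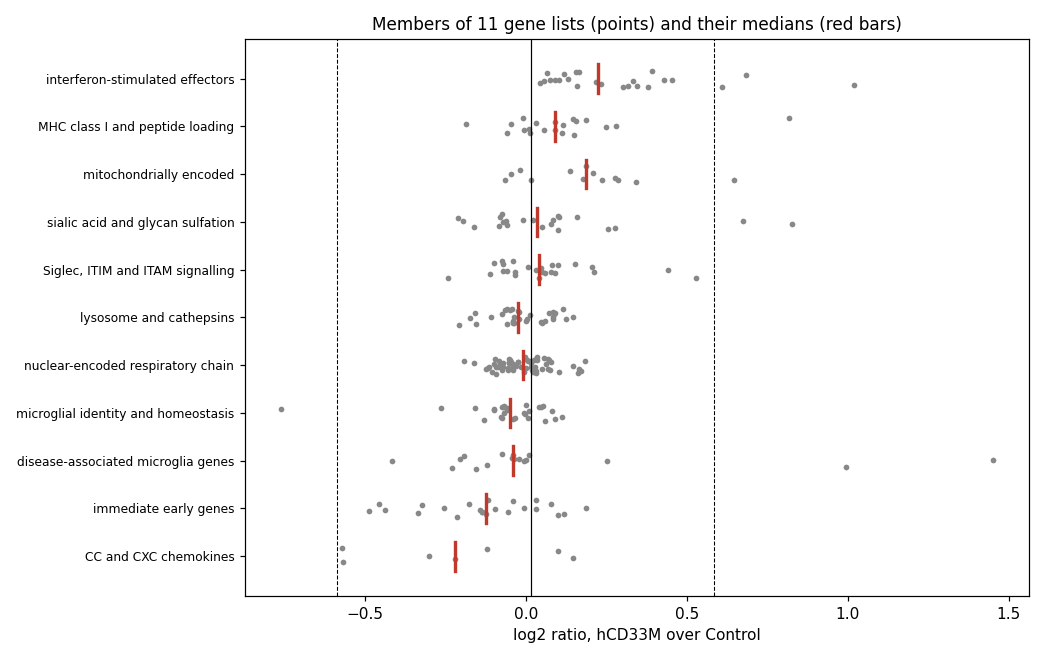
Log2 ratios of hCD33M over Control for the measured members of 11 gene lists (points), with the median of each list as a red bar, the median of all 8581 genes as a solid line and 1.5-fold as dashed lines. The interferon-stimulated effectors lie to the right of 0 with a median of 0.23, the immediate early genes lie mostly to the left with a median of -0.12, and the lysosome and respiratory chain lists centre near 0.

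Genes of MHC class I, which present peptides to CD8 T cells, were also slightly higher. Of 20 measured members 15 were above 0, with a median of 0.09 and with 1 member past 1.5-fold. H2-K1 had 423 CPM in Control, 514 CPM in hCD33M and 549 CPM in hCD33m (0.28, 0.24 to 0.32), and it was seen in 51.4% of Control (49.6 to 53.2) and 58.8% of hCD33M microglia (57.4 to 60.3). H2-D1 had 571, 678 and 682 CPM (0.25, 0.21 to 0.28). The member past 1.5-fold, H2-Q7, had 8.30 and 14.6 CPM (0.82, 0.55 to 1.09), and its ratio was -0.01 in cells of at least 8000 UMIs. Pdia3, a chaperone of peptide loading, was at -0.19 (-0.22 to -0.15). H2 genes are close to each other in sequence, so reads may be shared among them.

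MHC class II genes present peptides to CD4 T cells, and 4 of the 6 measured members were counted in few microglia. The other two encode the chains that help load peptides and were seen in many cells. H2-DMa had 238 CPM in Control and 288 CPM in hCD33M (0.27, 0.22 to 0.33) and was seen in 36.0% and 41.2% of microglia, and H2-DMb1 had 178 and 174 CPM (-0.03, -0.10 to 0.03) and was seen in 28.7% and 29.2%. H2-Aa had 11.2 CPM in Control and 17.4 CPM in hCD33M (0.63, 0.40 to 0.87), H2-Eb1 had 9.06 and 18.6 CPM (1.03, 0.78 to 1.29), and Cd74, the chain that escorts class II molecules, had 51.5 and 67.7 CPM (0.39, 0.28 to 0.51). Yet H2-Aa was seen in 0.96% of Control microglia (0.64 to 1.37) and 0.75% of hCD33M microglia (0.52 to 1.05), and at least 3 UMIs of H2-Aa, H2-Ab1 and H2-Eb1 together were held by 7 of 3033 and 12 of 4517 cells. With these and the other marked cell states left out, H2-Aa was at -0.46, H2-Eb1 at -0.68, Cd74 at -0.20 and H2-Ab1 at -0.04. In cells of 2000 to under 5000 UMIs Cd74 was at -0.75 and H2-Ab1 at -1.18. Other macrophages carried H2-Aa at 4409 CPM in Control and 2696 CPM in hCD33M. When under 2 UMIs of other macrophage markers were allowed, H2-Aa was at -1.21 and H2-Eb1 at -1.19.

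The chemokines, which draw immune cells, tended to be lower. Of 7 measured members 5 were below 0, with a median of -0.22, and none was past 1.5-fold. Ccl3 had 82.3 CPM in Control (78.3 to 86.4), 55.4 CPM in hCD33M (52.6 to 58.3) and 43.1 CPM in hCD33m (-0.57, -0.67 to -0.47), and was seen in 8.47% of Control (7.51 to 9.52) and 5.34% of hCD33M microglia (4.70 to 6.03). Ccl4 had 75.3, 50.8 and 50.9 CPM (-0.57, -0.67 to -0.46) and was seen in 4.45% (3.74 to 5.25) and 2.99% (2.51 to 3.53). Both genes sit in a small part of the cells: the 5% of cells with the most Ccl3 UMIs held 77.9% of them in Control and 96.8% in hCD33M. Such a value depends on how many cells have a UMI at all. Ddx58, seen in 5.31% of hCD33M microglia, had 94.7% by the same measure, so the hCD33M share alone does not show a concentration beyond detection. In Control, Gng10, seen in 8.54% of microglia, had 60.7%. Cells with a UMI held on average 1.85 Ccl3 UMIs in Control and 1.95 in hCD33M at 2000 UMIs. The values were 2.79 and 3.17 for Ccl4, against 1.05 and 1.09 for Ddx58. The ratios of Ccl3 and Ccl4 differed by cell depth. Ccl4 was at 0.36 in cells of 2000 to under 5000 UMIs, -0.85 in cells of 5000 to under 8000 and -0.19 in cells of at least 8000. Ccl3 was at -0.61, -0.71 and -0.11 in the same bands. The median of the list was 0.02 and 0.03 in the lowest and the highest of these bands.

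The other chemokines did not follow a common direction. Ccl9 was at -0.22 (-0.29 to -0.14), Ccl6 at -0.12 (-0.18 to -0.06), Ccl2 at -0.30 (-0.53 to -0.07), Cxcl16 at 0.10 (-0.00 to 0.20) and Ccl12 at 0.15 (0.08 to 0.21). Ccl2 was at 0.02, -1.48 and 1.19 in the bands from the lowest to the highest depth, and Ccl12 at -0.01 in the middle one. In the list of NF-kB targets, cytokines and their feedback inhibitors 14 of 24 members were above 0, with a median of 0.01 and none past 1.5-fold. Tnf, an inflammatory cytokine, had 10.2 CPM in Control, 11.7 CPM in hCD33M and 4.45 CPM in hCD33m (0.19, -0.07 to 0.45). Cd83, an activation marker, was at -0.24 (-0.33 to -0.15) and the lipopolysaccharide co-receptor gene Cd14 at -0.16 (-0.21 to -0.12).

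Immediate early genes, transcribed within minutes of a stimulus, were mostly lower in hCD33M. Brains had been perfused and stored with inhibitors of transcription and translation, which limit the induction of such genes during isolation. Of 23 measured members 6 were above 0, against 55.1% of all genes, with a median of -0.12 and none past 1.5-fold. The median was between -0.21 and -0.09 over the other ways of processing. Egr1, a zinc finger transcription factor, had 232 CPM in Control, 165 CPM in hCD33M and 342 CPM in hCD33m (-0.49, -0.55 to -0.43). Fos, a subunit of the transcription factor AP-1, had 85.2, 62.9 and 205 CPM (-0.44, -0.54 to -0.34). Ier2, an early response regulator, had 51.1, 37.2 and 69.8 CPM (-0.46, -0.59 to -0.33). In each of these 3 genes, hCD33M was the lowest and hCD33m the highest library.

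Jun, the partner of Fos in AP-1, had 966 CPM in Control, 834 CPM in hCD33M and 1279 CPM in hCD33m (-0.21, -0.24 to -0.18). Dusp1, a phosphatase that ends MAP kinase signals, was at -0.32 (-0.51 to -0.14) and the transcription factor gene Klf4 at -0.33 (-0.54 to -0.13). The antiproliferative gene Btg2 was at -0.14 (-0.18 to -0.11), and its relative Btg1 at 0.10 (0.06 to 0.14). Fosb had 51.6 and 51.3 CPM (-0.01, -0.13 to 0.11), against 136 CPM in hCD33m. Rhob, a small GTPase, was at -0.04 (-0.07 to -0.01), Zfp36l1, which promotes mRNA decay, at 0.03 (-0.01 to 0.07), and Klf2 at 0.12 (-0.03 to 0.27).

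The share of cells with a UMI followed the levels. Egr1 was seen in 27.1% of Control (25.5 to 28.7) and 20.2% of hCD33M microglia (19.0 to 21.4) at 2000 UMIs, and Fos in 11.4% (10.3 to 12.6) and 9.72% (8.87 to 10.6), with overlapping intervals for Fos. Other macrophages showed Fos in 31.2% and 29.8% of their cells, so they give no background for it. Fos was at -0.37 in cells of 2000 to under 5000 UMIs, -0.29 in cells of 5000 to under 8000 and -0.78 in cells of at least 8000.

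**Figure D5:**
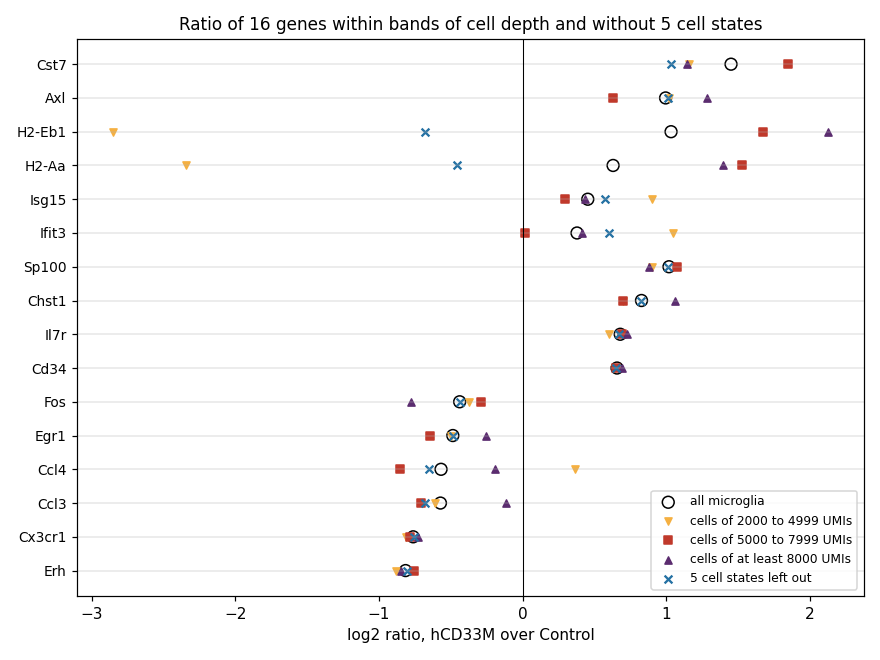
Log2 ratio of hCD33M over Control for 16 genes in all microglia (open circles), in 3 bands of UMIs per cell (triangles and squares) and with 5 cell states left out (crosses). Cx3cr1, Erh, Cd34, Il7r and Sp100 keep nearly the same ratio in every band, while H2-Aa, H2-Eb1 and Ccl4 cross 0.

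Genes of disease-associated microglia, a state described around amyloid plaques, moved apart from each other. Of 17 measured members 5 were above 0, with a median of -0.04, and 2 were past 1.5-fold. Cst7, an inhibitor of cathepsins, had 12.2 CPM in Control (10.7 to 13.8), 33.3 CPM in hCD33M (31.2 to 35.6) and 22.6 CPM in hCD33m (1.45, 1.24 to 1.66). Its ratio was 0.65 in cells with 1000 genes or more and no more than 5% mitochondrial UMIs, and 1.85 in cells of 5000 to under 8000 UMIs. Axl, a receptor for the clearance of dead cells, had 5.38, 10.7 and 8.02 CPM (0.996, 0.67 to 1.33). Other members lay on the lower side: Cd9, a tetraspanin, had 1757 and 1501 CPM (-0.23, -0.25 to -0.21), and Apoe, a lipid carrier, had 484 and 424 CPM (-0.19, -0.23 to -0.15). Apoe is also abundant in other macrophages, at 41188 CPM in Control and 39151 CPM in hCD33M, and over the other ways of processing it ranged from -0.40 to 0.08. Lyz2, a lysozyme of myeloid cells, was at 0.25 (0.21 to 0.30), but at 0.03 over all kept cells and 0.14 with the cell states left out, and other macrophages held it at 25091 CPM in Control and 21951 CPM in hCD33M.

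Part of the Cst7 UMIs came from few cells. Cells with at least 3 UMIs of Cst7, Lpl, Spp1 and Itgax at 2000 UMIs made up 10 of 3033 in Control (0.33%, 0.16 to 0.61) and 37 of 4517 in hCD33M (0.82%, 0.58 to 1.13), with 23 of 4871 in hCD33m. Without those cells and the other marked states, a step that removes cells because they hold Cst7, its ratio was 1.03. Cst7 was seen in 2.01% of Control (1.54 to 2.58) and 3.96% of hCD33M microglia (3.41 to 4.57), and in 0 of 32 and 0 of 57 other macrophages, which allows up to 9.38% and 5.26%. Cells with at least 3 UMIs of Ifit1, Ifit2, Ifit3, Isg15 and Rsad2 were 13 in Control (0.43%, 0.23 to 0.73) and 27 in hCD33M (0.60%, 0.39 to 0.87), with 30 of 4871 in hCD33m (0.62%, 0.42 to 0.88). Cells with at least 10 UMIs of Ccl3 and Ccl4 were 7 and 9, and cycling cells 2 and 4. The intervals of all 5 states, that of the Cst7 cells included, overlapped between Control and hCD33M.

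Genes of microglial identity were close to equal. Of 28 measured members 10 were above 0, with a median of -0.05, and Cx3cr1 alone was past 1.5-fold. Fcrls, an Fc receptor-like gene of microglia, had 2226 CPM in Control, 1855 CPM in hCD33M and 2344 CPM in hCD33m (-0.26, -0.28 to -0.24). Cst3, a secreted cathepsin inhibitor, had 55400 and 49612 CPM (-0.16), and Gpr34, a lysophospholipid receptor, had 2268 and 2074 CPM (-0.13). Csf1r, which microglia need to survive, had 3710 and 3628 CPM (-0.03), and Selplg was at 0.05. Among 22 transcription factor genes the median was 0.02, from -0.26 for Cebpa to 0.26 for Elk3.

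Receptors that signal through ITIM or ITAM motifs, the family to which CD33 belongs, had a median of 0.04 over 25 measured members, 15 of them above 0 and none past 1.5-fold. Cd22, an inhibitory Siglec known from B cells, had 7.48 and 10.8 CPM (0.53, 0.24 to 0.83), and Siglecg was at 0.44 (0.16 to 0.73), both at low levels. Plcg2, a phospholipase downstream of ITAM receptors, had 75.3 and 86.8 CPM (0.21, 0.11 to 0.30). The adaptor gene Tyrobp was at -0.07 (-0.09 to -0.05) and Fcer1g at -0.03.

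Genes of phagocytosis, lysosomes and complement gave no common direction. The list of phagocytic receptors and other uptake genes had a median of 0.00 over 27 members. Axl was past 1.5-fold, and the activating Fc receptor gene Fcgr4 was at 0.45 (0.23 to 0.68). In the lysosome list 15 of 34 members were above 0, with a median of -0.02, from -0.21 for the protease gene Ctsd (7698 and 6671 CPM) to 0.15 for Ppt1. C1qb was at -0.09 and C1qa at 0.00 among 8 complement genes with a median of -0.01. Adhesion genes were above 0 in 15 of 17 cases, against 55.1% of all genes, with a median of 0.07. Cd34 and Vcam1 were past 1.5-fold, and Vcam1 was measured only because of its level in hCD33M. Vcam1, a ligand of integrins, had 5.84 and 10.7 CPM (0.87, 0.55 to 1.198). It was under 1.5-fold in cells with 1000 genes or more and no more than 5% mitochondrial UMIs (0.45) and in cells of at least 8000 UMIs (0.49), and at 1.70 in cells of 2000 to under 5000 UMIs.

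The mitochondrially encoded transcripts were higher in hCD33M. Of 13 members 10 were above 0, with a median of 0.19, and they summed to 19731 CPM in Control and 22838 CPM in hCD33M, with 19664 CPM in hCD33m. mt-Nd3, a subunit of complex I, had 577, 903 and 768 CPM (0.65, 0.61 to 0.68) and was seen in 63.1% of Control (61.4 to 64.8) and 76.7% of hCD33M microglia (75.5 to 78.0). Among other macrophages it was seen in 18 of 32 and 51 of 57 cells. mt-Atp6 was at 0.34 (0.33 to 0.36) and mt-Co2 at 0.28 (0.26 to 0.29). The median share of mitochondrial UMIs per cell was 1.86% in Control and 2.07% in hCD33M. The 62 nuclear-encoded genes of the respiratory chain had a median of -0.01 and ranged from -0.19 to 0.18.

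The other lists stayed near 0. Glycolytic genes had a median of -0.06 with 4 of 17 above 0, from Eno1 to Hk2, the first enzyme of the pathway, which had 282 and 360.4 CPM (0.35, 0.31 to 0.40). Medians of the heat shock, proteasome, iron, lipid, TGF-beta and purinergic receptor lists were between -0.01 and 0.06, with no member past 1.5-fold. The cholesterol synthesis list had 2 of 9 members above 0 and a median of -0.09, the circadian list a median of -0.07, with Dbp at -0.50 (-0.68 to -0.32) and Hlf at 0.53 (0.34 to 0.73), and the cell cycle list a median of 0.08. Glucocorticoid-induced genes had a median of -0.01, and Tsc22d3 had 33.7 CPM in Control and 33.4 CPM in hCD33M against 126 CPM in hCD33m. The chromatin list had a median of -0.00, with Hmga1 past 1.5-fold, at 11.3 and 5.81 CPM (-0.96, -1.27 to -0.66), but its near-identical copy Hmga1b was at 0.58 and the sum of both at -0.13 (-0.33 to 0.07).

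Several genes under 50 CPM had larger ratios, and they are named here after their values were seen. Eps8l1, a regulator of actin, had 4.15 CPM in Control, 12.97 CPM in hCD33M and 23.7 CPM in hCD33m (1.64, 1.29 to 2.01). Fgl2, a secreted immune regulator, had 9.58, 19.9 and 12.03 CPM (1.06, 0.81 to 1.30). Klrd1, an inhibitory lectin-like receptor of natural killer cells, had 9.93, 17.2 and 18.6 CPM (0.79, 0.55 to 1.04), and Tnfsf8, the ligand of CD30, had 5.17, 11.9 and 3.64 CPM (1.205, 0.88 to 1.54). Arhgap15 was at 1.47 (1.16 to 1.78), Ildr2 at 0.95 (0.75 to 1.17) and Gpr35 at 0.94 (0.64 to 1.25). These genes were seen in under 5% of microglia at 2000 UMIs in all 3 libraries.

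On the lower side, Gstp1, which conjugates glutathione, had 27.2 CPM in Control, 10.2 CPM in hCD33M and 5.18 CPM in hCD33m (-1.42, -1.64 to -1.21). Ccdc85b had 10.4, 3.49 and 2.07 CPM (-1.58, -1.95 to -1.22), and Lrch4 had 26.4, 11.7 and 11.03 CPM (-1.17, -1.38 to -0.96). The histone genes Hist1h2ap (-1.16), Hist1h2ae (-0.70) and Hist1h1d (-0.68) were also past 1.5-fold, and the first of them stood at 28.7, 12.8 and 10.8 CPM. Histone transcripts often lack the poly(A) tail that this assay captures, and the genes are near-identical copies, so their counts are uncertain. The dynein light chain genes Dynlt1c and Dynlt1f, which are also copies, were at -0.70 and -0.58, and their sum at -0.63 (-0.77 to -0.50). In cells of 2000 to under 5000 UMIs, Dynlt1c was at -0.42 and Hist1h1d at -0.26, and Hist1h2ae was at -0.47 in cells of at least 8000 UMIs, all under 1.5-fold.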

How the data were processed

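Brain microglia were profiled on the 10x Chromium 3' platform, with 1 library per genotype. Reads were mapped to mm10 by the authors, using Cell Ranger, and read into Seurat. The deposited counts are whole UMIs per gene and cell, and the files are limited to cells of over 200 genes and to genes present in 3 cells or more. Both mm10 and Seurat also appear in the submitters' processing notes. The sources used here do not give the annotation release or the use of strand. Doublets were not called, apart from the limit of 8000 genes.

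Barcodes with over 200 and under 8000 genes and at most 10% mitochondrial UMIs were kept (3412 of 3482 in Control, 5046 of 5100 in hCD33M and 5612 of 5707 in hCD33m). For Control and hCD33M this is somewhat more than the study gives after the filter of its second experiment. Microglia UMIs were summed per library, with a depth of 19528575 (Control), 26676577 (hCD33M) and 29919957 (hCD33m), and scaled to CPM. Log2 ratios were taken for genes whose higher library reached 10 CPM, leaving out 1 gene with a count of 0, with exact conditional binomial 95% intervals. Shares carry Clopper-Pearson intervals, after thinning to 2000 UMIs, for which 181 microglia of Control, 274 of hCD33M and 436 of hCD33m were too shallow. Where a count was 0, the limit is 3 counts of the total. UMIs mark molecules, and all intervals and limits cover counting error only. The functions were tested on simulated data.

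With 1 library a side no test was run. The microglia rule, gene lists and alternatives were chosen with earlier results of these data known. Named genes were the 15 highest and 15 lowest ratios with at least 50 CPM, sex-linked genes left out, up to 5 members of each of 47 lists with the largest ratios and up to 2 with the highest Control level, all measured interferon effectors and chemokines, and the early response genes named by the study. A few genes named by the rule are left out of the text. Alternatives were TMM factors (edgeR 4.0.16), median-of-ratios factors (DESeq2 1.42.0), totals that exclude Malat1, mitochondrial and ribosomal protein UMIs, thinned cells, other cell filters and marker limits, bands of depth, cell states left out and minimums of 5 and 50 CPM. Coordinates came from GENCODE vM21 on GRCm38, matched by symbol for 8497 of 8581 genes, and promoters from RefSeq on GRCm38.p6. Python 3.11.15, numpy 2.4.6, scipy 1.17.1, pandas 2.3.3, matplotlib 3.10.9 and R 4.3.3 were used.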

Additional observations from a re-analysis of the deposited data

How the results depend on the processing

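With 1 library per genotype, the spread between mice is unknown and no library could be left out. No paired analysis was possible because each genotype has 1 library and no test was run. The 16 alternatives kept the direction of the medians for the interferon effectors (0.13 to 0.38), MHC class I (0.07 to 0.14), immediate early genes (-0.21 to -0.09), identity genes (-0.06 to -0.01) and mitochondrially encoded genes (0.14 to 0.24). In each of the 3 alternatives of the share of cells with a UMI all 30 genes kept their direction. Those genes were chosen by their ratios from the same UMIs, so this was largely set by the choice. TMM and median-of-ratios factors moved the median of all genes to -0.00 and gave 41 higher and 28 lower genes each.

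Counts past 1.5-fold, 47 higher and 25 lower, depended on depth and minimum: 79 and 49 with cells thinned to 2000 UMIs, 102 and 71 in cells of 2000 to under 5000 UMIs, 50 and 38 in cells of 5000 to under 8000, 107 and 64 in cells of at least 8000, 76 and 43 with a minimum of 5 CPM, and 13 and 3 with 50 CPM. The sums of the bands hold fewer UMIs.

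In cells of 2000 to under 5000 UMIs the medians were 0.018 for chemokines and 0.025 for disease-associated genes. In cells of 5000 to under 8000 UMIs they were 0.13 for interferon effectors, -0.21 for immediate early, -0.011 for identity and 0.24 for mitochondrially encoded genes. In cells of at least 8000 UMIs they were 0.38 for interferon effectors, 0.030 for chemokines and 0.16 for mitochondrially encoded genes. In cells that passed a stricter filter, 1000 genes or more and no more than 5% mitochondrial UMIs, disease-associated genes were at -0.093 and mitochondrially encoded genes at 0.14, and over all kept cells disease-associated genes were at -0.10. Of single genes past 1.5-fold, H2-Q7 reversed in cells of at least 8000 UMIs (-0.0095). H2-Eb1 and H2-Aa reversed with other macrophage markers under 2 UMIs (-1.19 and -1.21), over all kept cells (-0.28 and -0.33), in cells of 2000 to under 5000 UMIs (-2.85 and -2.34) and with the cell states left out (-0.68 and -0.46). The cause was not tested.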

Other observations

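Border-associated and other macrophages of the same libraries, cells with under 0.15% P2ry12 and Tmem119 UMIs and at least 5 UMIs of Mrc1, Pf4, Ms4a7 and F13a1, were few, 33 in Control and 57 in hCD33M. Their summed levels for the genes described in microglia are given as values only. Cx3cr1 had 1455 CPM in Control and 729.7 CPM in hCD33M, Gm47283 had 13.6 and 92.5 CPM, mt-Nd3 had 639 and 1107 CPM, Sp100 had 86.1 and 145 CPM, Ifi27l2a had 385 and 1212 CPM, and Isg15 had 145 and 37.5 CPM. H2-K1 had 1011 and 1075 CPM, and Egr1 had 122 and 29.99 CPM. With so few cells, 1 or 2 of them can set such a value.

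The astrocyte-type glutamate transporter gene Slc1a3 was seen in 32.7% of Control and 32.9% of hCD33M microglia at 2000 UMIs but in 1 of 32 and 1 of 57 other macrophages. The immunoglobulin gene Ighm, on the list of lymphocyte markers, had 362 and 366 CPM in microglia and 317 and 295 CPM in other macrophages.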
